A study of Mus musculus with 4 samples.

Results

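In the mouse hypothalamus at birth (P0) and at postnatal day 7 (P7), 344 of 20997 sequenced cells carried large amounts of the messenger RNA for vasopressin (Avp) or oxytocin (Oxt). They were chosen cell by cell from raw counts of unique molecular identifiers (UMIs, each one captured RNA molecule). A cell qualified with at least 30 UMIs of Avp plus Oxt and at least 2 of Stmn2, a neuronal microtubule regulator. The whole series held 43261 cells. The animals were C57BL/6J mice carrying Rax-CreERT2, a tamoxifen-inducible Cre recombinase under control of the hypothalamic gene Rax, and Ai14, a reporter that makes the red protein tdTomato after recombination. All of them, at every age, received 1 dose of tamoxifen at E9 or E9.5 (the labels give both), hypothalami were dissected at E11, E14, P0 and P7, and live tdTomato-positive cells were sorted, so only descendants of cells with active Cre at that time were seen. Labels give 1 sample per age, and the E11, E14 and P7 samples also carry the age labels E11.5, E14.5 and P7.5. Cell names divide the P0 sample into run 1 (2452 cells) and run 2 (9628 cells), while P7 has 1 run (8917 cells).

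Avp and Oxt are sister genes whose precursors are cleaved into a short peptide hormone and a carrier protein, neurophysin. Large (magnocellular) neurons of the paraventricular and supraoptic nuclei send these hormones to the posterior pituitary, from which vasopressin acts on water retention and oxytocin on labour and milk release. Their development depends on the transcription factors Otp, Sim1 and Pou3f2. Vasopressin is also made by small GABA neurons of the suprachiasmatic nucleus, the circadian clock, a territory marked by Six6, Six3, Lhx1 and Rora.

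The 2 genes lie on chromosome 2 with their 3-prime ends facing each other. In GRCm38 RefSeq places Oxt at chr2:130574519-130577054 and Avp at chr2:130580620-130582588, 3565 bases apart. Their promoters are shown because the peptides define the cells. The 250 bases before the start that the RefSeq promoter table uses for each gene follow, 5′ to 3′ in the direction of transcription, with every match of CACGTG in capitals for Avp and every match of AGGTCA on either strand in capitals for Oxt. Avp is on the minus strand at chr2:130582589-130582838 and Oxt on the plus strand at chr2:130575919-130576168. The Oxt window lies inside the RefSeq gene span given above, because the start used for it is downstream of the first base of that span.
Avp: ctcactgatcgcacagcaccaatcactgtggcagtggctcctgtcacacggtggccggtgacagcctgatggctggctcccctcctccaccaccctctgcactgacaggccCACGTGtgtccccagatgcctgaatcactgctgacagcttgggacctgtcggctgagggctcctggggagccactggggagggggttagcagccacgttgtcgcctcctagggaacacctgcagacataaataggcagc
Oxt: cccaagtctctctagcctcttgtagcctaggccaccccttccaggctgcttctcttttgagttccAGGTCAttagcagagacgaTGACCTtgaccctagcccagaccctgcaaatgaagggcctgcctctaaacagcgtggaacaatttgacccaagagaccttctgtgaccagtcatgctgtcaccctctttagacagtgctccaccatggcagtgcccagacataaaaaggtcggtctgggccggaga
CACGTG is the E-box bound by the clock proteins CLOCK and BMAL1 and by other basic helix-loop-helix factors. It began 139 bases before the Avp start, and 6.02% of 32851 RefSeq windows of this length hold it. AGGTCA is the core motif of many nuclear receptors, Rora and Rorb among them. The Oxt window held it 185 bases before the start and, as TGACCT, on the other strand at 166 bases, and 14% of windows hold it on at least 1 strand. CACGTG had no match in the Oxt window, AGGTCA none in the Avp window, and TGACGTCA, the full cyclic AMP response element (in 1.55% of windows), none in either. ACGTG, which CACGTG holds on each strand, had 3 matches in the Avp window over both strands, those of the E-box among them. Any match of ACGTG was found in 16.6% of windows. These are matches of letters, not evidence of binding.

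The neurophysin-coding parts of both genes are so alike that the annotated transcripts Avp-201 (577 bases) and Oxt-201 (537 bases) share an identical stretch of 127 bases, which ends 307 and 255 bases before their 3-prime ends. Reads wholly inside that stretch cannot be given to one gene, so small counts of one peptide in cells rich in the other are uncertain.

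Each age has 1 sample and no replicate, and the labels do not say what separates the runs of a sample. No test between ages was possible, and no p-value is given. Levels are counts per 1000000 UMIs (CPM) of the summed cells of a group, with Avp and Oxt left out of the totals. Values in parentheses after a level or share are 95% intervals, from the exact Poisson distribution for levels and the Clopper-Pearson method for shares. They hold the error of counting alone and not the spread between cells or animals. Where 1 cell gave most of the UMIs behind a level of 5 or more, this is said. Median depth per cell was 10312 UMIs in P0 run 1, 15081 in P0 run 2 and 15647 at P7 in the qualifying cells. No cell of the table has more than 7998 genes, and 5 of the 11 P7 oxytocin cells described below had at least 7000, against 8.74% of the P7 other cells. Whether an upper limit on genes removed such cells was not tested. Sexes were mixed unevenly. Xist without a Y-linked UMI was found in 14 of the 67 qualifying cells of P0 run 2 and in 0 of those of P0 run 1 and P7. A Y-linked UMI was found in 47 of the 67 and in 225 of the 247 at P7. Cells with such a UMI were not compared apart, so the part of sex was not tested where P0 run 2 is compared with P7. Cells without a tdTomato UMI were 0 of the 30, 2 of the 67 and 4 of the 247 qualifying cells of P0 run 1, P0 run 2 and P7. Of the 344 cell barcodes 2 also occurred in another run.

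The qualifying cells made up 1.74% (1.18 to 2.48%) of Stmn2-positive cells in P0 run 1, 0.843% (0.654 to 1.07%) in P0 run 2 and 5.70% (5.03 to 6.43%) at P7, that is 30, 67 and 247 cells. Every cell with 30 UMIs of the peptides also met the Stmn2 minimum. They held 96.6%, 82.7% and 91.8% of all Avp UMIs of the 3 runs, and 97.1%, 75.8% and 94.2% of all Oxt UMIs. Just inside the minimum, with 30 to 39 UMIs, were 4, 3 and 19 cells. Just outside it, with 20 to 29, were 2, 10 and 21.

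Few qualifying cells reached 30 UMIs of both Avp and Oxt. The rule used these same counts, and the overlap to expect from the rarity of such cells alone was not computed. At least 30 UMIs of Avp were found in 23, 58 and 234 cells of P0 run 1, P0 run 2 and P7, and at least 30 of Oxt in 7, 11 and 12. Both peptides reached 30 in 0, 2 and 1 of these. The 2 such cells of P0 run 2 held 138 and 760 Avp with 33 and 43 Oxt UMIs, and the P7 cell held 57 Avp and 501 Oxt UMIs. Another 2 cells at P7 reached the minimum only by the sum. The remaining 312 cells with Avp and 27 with Oxt are called the Avp class (23, 56 and 233 cells) and the Oxt class (7, 9 and 11 cells). The Oxt class was 23.3% of qualifying cells in P0 run 1, 13.4% in P0 run 2 and 4.45% at P7.

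**Figure D1:**
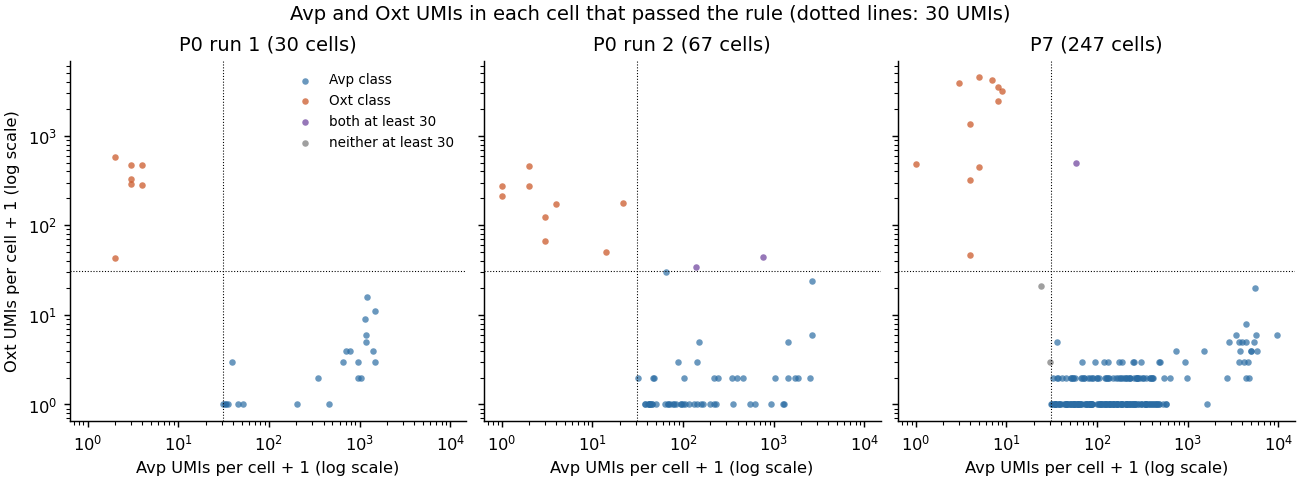
Each point is a qualifying cell of the run named above the panel, with Avp UMIs on the horizontal and Oxt UMIs on the vertical axis, 1 added to each and both axes logarithmic. Cells lie along either axis, and 3 of 344 reach 30 UMIs of both.

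Oxytocin cells were few but carried more Oxt at P7 than at birth. In P0 run 1 the 7 cells held from 42 to 580 Oxt UMIs with a median of 333. In P0 run 2 the 9 cells held from 49 to 454 with a median of 176. At P7 the range was 46 to 4493 with a median of 2450. The 7 richest P7 cells, from 1360 UMIs upward, were above every cell at birth, while the other 4 overlapped with them. The highest share of a cell's UMIs was 11.4% in P0 run 1, 3.07% in P0 run 2 and 10.99% at P7, with medians of 3.27%, 0.729% and 7.49%. Depth moved with this: the median total was 12278, 27656 and 35442 UMIs. Per 10000 other UMIs, Oxt stood at 327, 79.2 and 712.

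UMIs of both peptides were also found in cells without Stmn2, and the level there is used as a floor. Whether these UMIs came from RNA free in the droplets was not tested. In P7 glia, here cells with no Stmn2 and at least 3 of 12 oligodendrocyte-lineage markers, 62.0% had an Avp UMI and 13.2% an Oxt UMI, at a median depth of 8561 UMIs. The highest Avp count in such a cell was 11. Avp in the P7 Oxt class was 1.37 per 10000 other UMIs against 1.07 in these glia and 0.906 in the other Stmn2-positive cells, so Avp in this class was near the floor. The same ratio at birth was 1.85 and 1.88 in the Oxt class of the 2 runs against 0.260 and 0.462 in the other cells and 0.183 and 0.577 in the glia. In P0 run 2 it rested on 2 of the 9 cells, which held 21 and 13 of the 43 Avp UMIs, while the other 7 held from 0 to 3 each. Oxt in the reverse direction stood at 0.440 in the P7 Avp class against 0.121 in the other cells.

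The markers given for these neurons, Otp and Sim1, did not mark most Avp cells at P7. Any UMI of Otp or Sim1 was found in 18 of 23 Avp class cells of P0 run 1, 32 of 56 of P0 run 2 and only 37 of 233 at P7. All 27 Oxt class cells had one. Cells without them carried genes of the suprachiasmatic nucleus list, so each Avp cell was placed by its own counts, with a split chosen after these data were seen. On the Otp side are cells with more UMIs of Otp plus Sim1 than of Six6 plus Lhx1 plus Vipr2, on the Six6 side those with fewer. The Otp side held 18 cells in P0 run 1, 30 in P0 run 2 and 29 at P7, and the Six6 side 2, 25 and 199. Another 3, 1 and 5 cells were tied. In shares, the Otp side fell from 78.3% (56.3 to 92.5%) and 53.6% (39.7 to 67.0%) of Avp cells at birth to 12.4% (8.50 to 17.4%) at P7. UMIs of both sets occurred in 0, 3 and 9 cells of the 3 runs, and 5, 6 and 9 cells lay within 1 UMI of the divide. The 5 splitting genes are left out of every comparison between the sides.

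**Figure D2:**
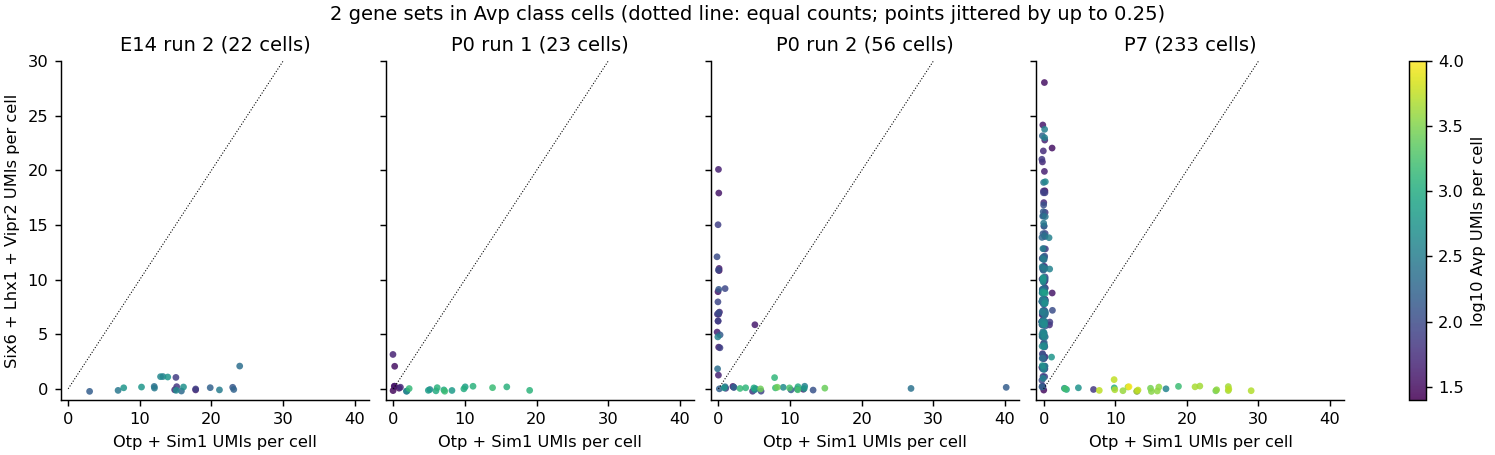
Each point is an Avp class cell, with its UMIs of Otp plus Sim1 on the horizontal and of Six6 plus Lhx1 plus Vipr2 on the vertical axis, coloured by log10 of its Avp UMIs. Points lie along both axes at P0 run 2 and P7, and the brightest points, with the most Avp, lie along the Otp and Sim1 axis.

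Otp-side cells carried far more vasopressin RNA. At P7 the 29 cells held from 66 to 9531 Avp UMIs with a median of 3723, and 22 of them exceeded 1000. The 199 Six6-side cells held from 30 to 739 with a median of 137, so the ranges overlapped only below 739. Avp was a median of 11.6% of a cell's UMIs on the Otp side and 0.943% on the Six6 side. The Otp side, 29 of 233 cells, gave 73.5% of the class's Avp UMIs. At birth the medians were 372.5 and 68 in P0 run 2, and 968 in the 18 Otp-side cells of P0 run 1, whose 2 Six6-side cells held 33 and 45. Depth differed as well: P7 medians were 32956 UMIs on the Otp side and 14991 on the Six6 side. Avp per 10000 other UMIs, which allows for depth, was 1286 and 115. Oxt stood at 1.17 per 10000 in P7 Otp-side cells against 0.260 in Six6-side cells and 0.150 in glia, and 25 of the 29 Otp-side cells had an Oxt UMI.

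All qualifying cells were then set against the other Stmn2-positive cells of the same run, those with under 10 UMIs of Avp plus Oxt (1682, 7853 and 4040 cells). A gene entered with a mean level of at least 10 CPM over both groups. It was called when the levels, with 5 CPM added, were at least 2-fold apart and their intervals did not overlap. Some genes of peptide secretion were higher in the summed qualifying cells. Peptide processing genes were called higher for 7 of 21 tested in P0 run 1, 10 of 21 in P0 run 2 and 7 of 21 at P7, where all tested genes were called higher in 3.29%, 2.63% and 2.3%. Lower calls were 0, 0 and 1 of the list, Syt7, against 6.24%, 4.65% and 7.36% of all genes. The list's median log2 difference was 0.52, 0.86 and 0.69, against -0.07, -0.05 and -0.05 over all genes. In total 1231 of 9004, 689 of 9466 and 953 of 9861 genes were at least 2-fold apart either way, which is 13.7%, 7.28% and 9.66%.

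Pcsk1, the convertase that cuts prohormones in the regulated pathway, measured 56.6, 42.9 and 49.9 CPM in P0 run 1, P0 run 2 and P7, against 4.87, 6.14 and 14.3 CPM in the other cells. Vgf, a granin-like neuropeptide precursor, measured 177, 240.5 and 676 against 32.4, 43.4 and 151 CPM in the same order. Scg2, secretogranin II of dense-core vesicles, measured 541, 1524 and 2810.1 against 143, 338 and 664 CPM, and Ptprn, a membrane protein of these vesicles, 354, 373 and 496 against 45.7, 57.2 and 169.6 CPM. All 4 were called higher in each run. At P7 these sums joined unlike cells: Scg2, at 3789 CPM on the Six6 side, measured 326 on the Otp side and 111 in the Oxt class, both below the 664 CPM of the other cells. Vgf measured 851, 169.6 and 283 against 151 CPM in the same order. Pcsk1 measured 17.5, 137 and 155 against 14.3 CPM, and Ptprn 504, 499.7 and 517 against 169.6 CPM. Pam, the enzyme that amidates the ends of both hormones, measured 272, 148 and 234 against 67.0, 58.1 and 90.2 CPM and was also called in all 3 runs. Levels of Cpe, which trims the cleaved peptides, were 527, 521 and 764 against 917, 510.3 and 1123 CPM and were called in none.

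Some genes tied to hormone synthesis were called higher, 5 of 9, 4 of 11 and 4 of 12 tested, against 3.29%, 2.63% and 2.3% of all genes. Rasd1, Caprin2, Creb3l1 and Fosl2 were among the higher genes of this list in each run. Rasd1, a Ras-like protein induced by steroids and by osmotic load, measured 49.5, 33.1 and 136 against 3.09, 2.27 and 6.59 CPM. Creb3l1, a transcription factor that acts on the Avp promoter, measured 31.8, 23.2 and 62.7 against 2.60, 2.18 and 10.5 CPM. Caprin2, an RNA-binding protein that binds Avp messenger RNA, measured 60.1, 39.3 and 28.9 against 5.44, 10.6 and 9.43 CPM, and Fosl2, an AP-1 family factor, 106, 36.7 and 30.1 against 4.06, 3.43 and 7.05 CPM. At P7 Caprin2 measured 4.87 CPM on the Six6 side, below the other cells, and 106 and 76.0 CPM on the Otp side and in the Oxt class. Creb3l1 measured 79.0 and 29.8 CPM on the Six6 and Otp sides and 5.84 in the Oxt class, below the other cells. Lower calls on the list were 1 in P0 run 1 (Ntrk2), 1 in P0 run 2 (Socs3) and 5 at P7 (Nr3c1, Rest, Bdnf, Ntrk2 and Socs3), more than its higher calls at P7. Over all genes 6.24%, 4.65% and 7.36% were called lower. Of the secretory pathway list, endoplasmic reticulum chaperones and their regulators, 3 of 23, 2 of 24 and 1 of 24 were called higher and 0 lower, close to the share of all genes at P7 with 1 gene, Creb3l1.

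Across the 3 runs, 29 genes were called higher and 76 lower every time with UMIs in no fewer than 20% of the higher group's cells. Ranked by their smallest fold, the first 12 higher were Rasd1, Pkib, Vgf, Ptbp3, Scg2, Parm1, Nrg1, Fosl2, Nrip3, Ptprn, Nnmt and Pcsk1. Pkib, an inhibitor of protein kinase A, measured 99.0, 105 and 252 against 16.5, 12.1 and 28.2 CPM. Ptbp3, a splicing regulator, measured 149, 188 and 115 against 26.1, 35.3 and 26.9 CPM, and Nnmt, nicotinamide N-methyltransferase, 35.4, 22.3 and 27.8 against 2.60, 4.47 and 6.48 CPM. The first 12 lower were Isl1, Nkx2-1, Sox9, Asb4, Nfix, Dlx1, Cd9, Tenm2, Slc1a3, Nfib, Id3 and Sparc. Isl1 and Nkx2-1, transcription factors of other hypothalamic territories, measured 3.54, 14.3 and 3.73 against 130.2, 170.3 and 98.1 CPM for Isl1 and 7.07, 16.1 and 5.36 against 144, 145 and 118 CPM for Nkx2-1.

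**Figure D3:**
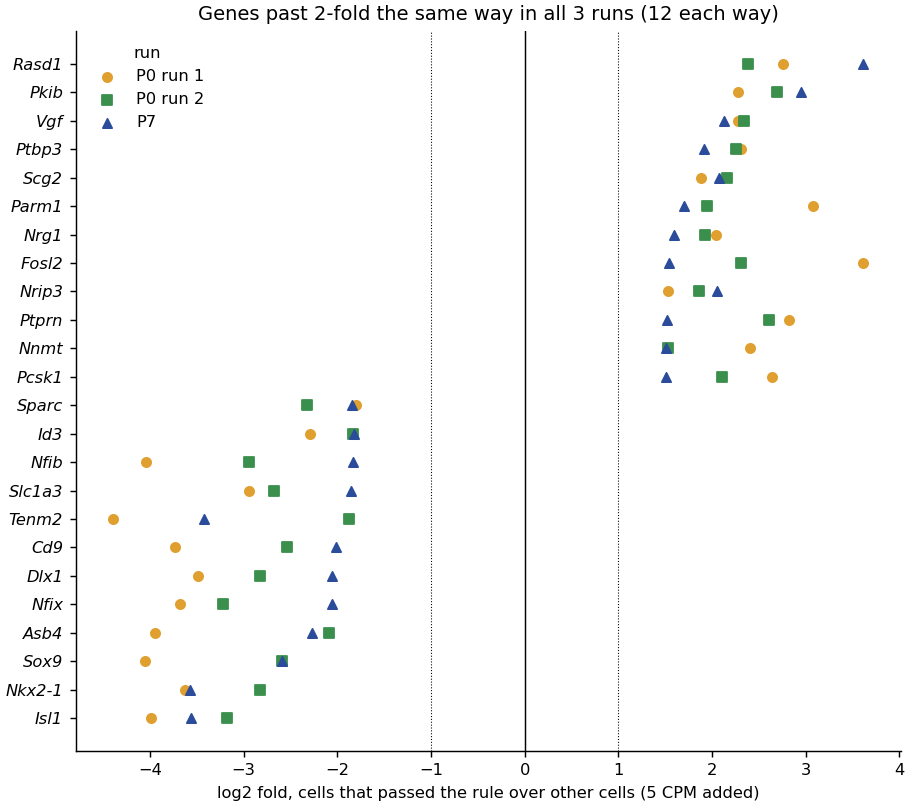
Points give the log2 fold of 24 genes in qualifying cells over other Stmn2-positive cells of the same run, with 5 CPM added, 1 symbol per run, and dotted lines at 2-fold. All points of the upper 12 genes lie right of 1 and all of the lower 12 left of -1. With other cells limited to at least 10 Stmn2 UMIs, Id3 at P0 run 2, Cd9 and Slc1a3 at P7 and Sparc in both turn to log2 values of 0.40, 0.04, 0.21, 0.09 and 0.00.

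Glial genes were lower too, among the first 12 Sox9, Cd9, Slc1a3, Id3 and Sparc. The 7 astrocyte markers summed to 145, 105 and 252 CPM in the qualifying cells against 709.5, 509 and 897 in the other cells, and the 6 precursor markers of oligodendrocytes to 14.15, 8.94 and 230.0 against 186, 190.1 and 722. In P0 run 2, 80 of the 117 astrocyte marker UMIs of the qualifying cells were in 1 Oxt class cell, a called doublet. All 13 of these markers had a UMI in the P7 qualifying cells. At 0 were Aqp4, Pdgfra, Cspg4, Olig2 and Sox10 in P0 run 1 and S100b and Sox10 in P0 run 2. The part of this glial RNA in the differences was tested only by the Stmn2 level of the other cells. With other cells limited to at least 10 Stmn2 UMIs, a setting chosen after these data were seen, 947, 422 and 614 genes were at least 2-fold apart in place of 1231, 689 and 953, and 38.4%, 49.8% and 38.6% of them were higher in place of 28.8%, 36.1% and 23.8%. The log2 difference of 4 of the glial genes turned under that setting, Id3 to 0.40 and Sparc to 0.087 in P0 run 2, and Cd9 to 0.042, Slc1a3 to 0.21 and Sparc to 0.0033 at P7.

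Transcription factors of other hypothalamic regions were lower in the qualifying cells. Of 26 transcription factors of other hypothalamic regions, 12 of 14 tested were called lower in P0 run 1, 14 of 17 in P0 run 2 and 8 of 11 at P7, and 0 higher. Over all genes 6.24%, 4.65% and 7.36% were called lower and 3.29%, 2.63% and 2.3% higher in these runs. On the suprachiasmatic nucleus list 1 of 10 was higher in P0 run 1, 10 of 15 in P0 run 2 and 12 of 17 at P7, and 2, 0 and 2 were lower, beside Six6-side shares of 8.70%, 44.6% and 85.4% of the Avp class. The part of that share in the counts was not tested. For the paraventricular list the calls were 4 of 12, 3 of 12 and 0 of 11 higher and 3, 3 and 2 lower. Among 31 other neuropeptides, Crh, Prok2 and Vgf were called higher in every run, although 1 cell gave 63.8% of the Crh counts in P0 run 1 and 53% at P7. Of those tested, 6 of 18 were higher and 6 lower in P0 run 1, 9 of 21 higher and 8 lower in P0 run 2, and 4 of 24 higher and 16 lower at P7, among the lower Npy at 39.4 against 909 CPM. Among the higher in P0 run 2 was Pmch, with 1050 UMIs in 1 Oxt class cell.

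Within the Avp class at P7, the sides differed in transmitter, clock genes and co-expressed peptides. Of 9237 genes tested, 668 were called higher on the Six6 side (7.23%) and 551 lower (5.97%), with 1257 (13.6%) at least 2-fold apart. All 11 genes of the suprachiasmatic nucleus list that were tested beside the splitting genes were called higher on the Six6 side. Six6, Lhx1 and Vipr2, which defined that side, belong to the same list, and the split was made after its genes were seen in these cells. Calls on the rest of the list are therefore no independent support for the split. Six3, a forebrain homeobox gene, measured 796 CPM (764 to 828) in the Six6-side cells and 12.9 CPM (6.21 to 23.8) in the Otp-side cells. Rora and Rorb, nuclear receptors of the clock loop, measured 638 CPM (610.3 to 667) and 735 CPM (705 to 766) against 28.5 CPM (17.8 to 43.1) and 6.47 CPM (2.10 to 15.1). Dbp, a clock output factor, measured 165 CPM (151 to 180.4) in the Six6-side cells and 3.88 CPM (0.801 to 11.4) in the Otp-side cells. Prok2, a secreted clock output peptide, measured 111 CPM (99.4 to 123) in the Six6-side cells and 27.2 CPM (16.8 to 41.6) in the Otp-side cells. Nms, neuromedin S, measured 74.7 CPM (65.4 to 85.1) on the Six6 side and had 0 UMIs on the Otp side.

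At birth the sides differed in genes of the same list. Between the 25 Six6-side and 30 Otp-side cells of P0 run 2, 411 of 9044 genes were called higher (4.54%) and 361 lower (3.99%), with 1635 (18.1%) at least 2-fold apart. On the suprachiasmatic nucleus list 11 of 13 tested genes were higher and 1, Grp, lower, with the same limit as at P7, since the split used genes of this list. Six3 measured 683 CPM (595 to 780.5) against 17.0 CPM (7.76 to 32.2) in the Otp-side cells, and Rorb 910.0 CPM (808 to 1021) against 11.3 CPM (4.15 to 24.6). Nms was low at birth, at 12.6 CPM (3.43 to 32.2) on the Six6 side.

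Most Otp-side cells held UMIs of a glutamate transporter gene and most Six6-side cells UMIs of GABA genes. A UMI of Slc17a6, the vesicular glutamate transporter, was found in 28 of 29 (96.6%, 82.2 to 99.9%) P7 Otp-side cells and 13 of 199 (6.53%, 3.52 to 10.9%) Six6-side cells. A UMI of Slc32a1, Gad1 or Gad2, the GABA transporter and the enzymes that make GABA, was found in 3 of 29 (10.3%, 2.19 to 27.4%) and 198 of 199 (99.5%, 97.2 to 100%). P7 glia, which should lack these genes, had Slc17a6 in 4.77% and a GABA gene in 21.9% of cells at a median of 8561 UMIs. GABA genes in Otp-side cells were thus at or below the background, and Slc17a6 in Six6-side cells near it. After each cell was thinned to 2000 UMIs, Slc17a6 remained in 37.9% of Otp-side and 0 of 199 Six6-side cells (exact interval 0 to 1.84%), and GABA genes in 0 of 29 (0 to 11.9%) and 75.4%. In P0 run 2 Slc17a6 was found in 24 of 30 (80%, 61.4 to 92.3%) Otp-side and 3 of 25 (12%, 2.55 to 31.2%) Six6-side cells, and GABA genes in 6 of 30 (20%, 7.71 to 38.6%) and 24 of 25 (96%, 79.6 to 99.9%). For the Avp class as a whole, Slc17a6 was in 49.4% of cells at birth and 17.6% at P7 and GABA genes in 48.1% and 87.6%, while the Otp side held 60.8% and 12.4% of the class.

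**Figure D4:**
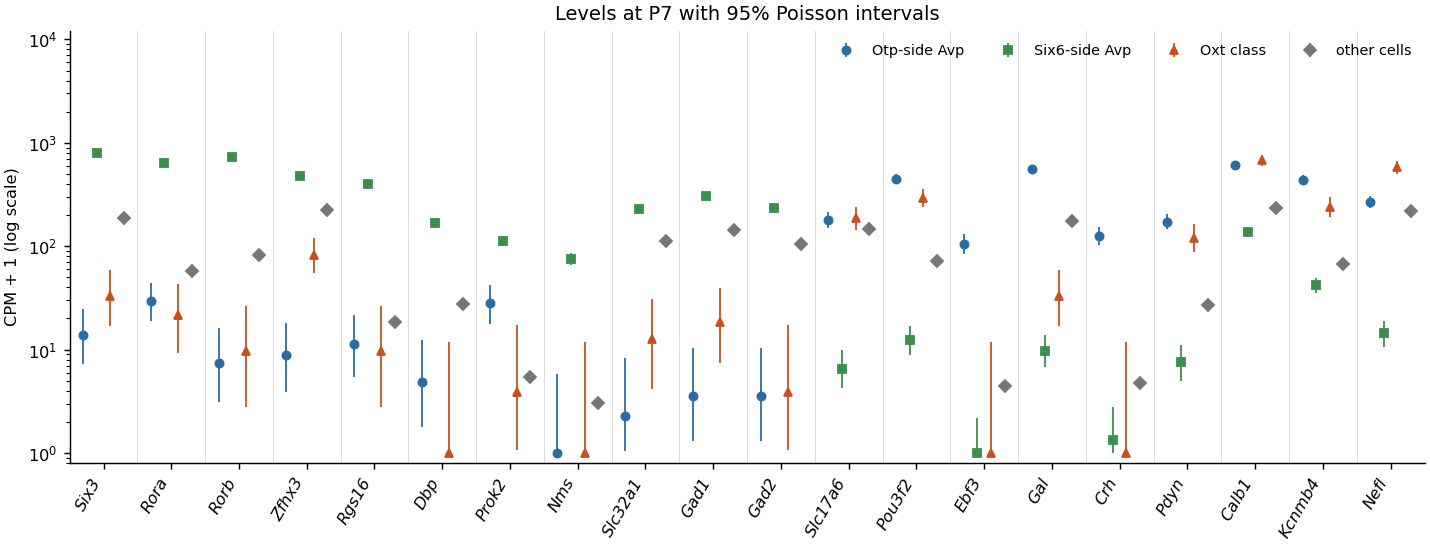
Levels in CPM plus 1, on a logarithmic axis, of 20 genes at P7 in 29 Otp-side Avp, 199 Six6-side Avp, 11 Oxt class and 4040 other cells, with 95% Poisson intervals. Squares (Six6 side) are highest from Six3 to Gad2, and lowest from Slc17a6 to Nefl among the 3 groups of qualifying cells except for Ebf3 and Crh, where the Oxt class is at 0.

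Co-expressed peptides were divided between the sides, and most tested genes of the magnocellular and parvocellular list were higher on the Otp side. Of 16 other neuropeptides tested at P7, 5 were higher on the Six6 side (Penk, Cck, Nms, Prok2 and Vgf) and 6 lower (Crh, Sst, Gal, Cartpt, Pdyn and Tac1). Over all genes 7.23% were called higher on that side and 5.97% lower. Gal, galanin, measured 553 CPM (502 to 608) against 8.77 CPM (5.78 to 12.8) on the Six6 side at P7. Pdyn, prodynorphin, measured 172 CPM (144 to 204) against 6.50 CPM (3.97 to 10.0). Crh, the releasing hormone of the stress axis, measured 126 CPM (102 to 153) against 0.325 CPM (0.00823 to 1.81), with 54.6% of its Otp-side counts in 1 cell. All 3 were called higher on the Otp side in P0 run 2 too. Pou3f2, a factor required for these neurons, measured 445 CPM (399.5 to 495) against 11.4 CPM (7.92 to 15.8), and Ebf3, a helix-loop-helix factor, 104 CPM (82.1 to 129) against 0 UMIs. Of the magnocellular and parvocellular list 6 of 8 tested genes were lower on the Six6 side and 1, Calb2, higher. Calb1, a calcium buffer, measured 607 CPM (553 to 665) against 137 CPM (124 to 151), and Kcnmb4, a subunit of calcium-gated potassium channels, 434 CPM (389 to 483) against 40.9 CPM (34.1 to 48.8). The neurofilament genes Nefl and Nefm measured 267 and 132 CPM against 13.3 and 4.87 CPM.

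Secretory genes were divided between the sides. Pcsk1 was higher on the Otp side, at 137 CPM (112 to 166) against 17.5 CPM (13.2 to 22.9), and Pcsk2, the companion convertase, on the Six6 side, at 373 CPM (352 to 396) against 95.8 CPM (75.2 to 120.3). Scg2 measured 3789 CPM (3721 to 3859) on the Six6 side and 326 CPM (287 to 369) on the Otp side. Rasd1 and Creb3l1 were higher on the Six6 side at P7, at 179 and 79.0 against 27.2 and 29.8 CPM. Caprin2 and Fosl2 were higher on the Otp side, at 106 and 55.7 against 4.87 and 22.7 CPM. Peptide processing calls on the Six6 side were 5 higher and 3 lower of 20 tested, where 7.23% and 5.97% of all genes were. With Avp and Oxt kept in the totals the median of all genes moved from 0.08 to 0.22 on the log2 scale, and 66.2% of the genes at least 2-fold apart were higher on the Six6 side in place of 55.7%. Avpr1a, a vasopressin receptor, measured 55.2 CPM (47.3 to 64.2) on the Six6 side and 1.29 CPM (0.0328 to 7.21) on the Otp side. Calcr, the calcitonin receptor, measured 86.1 CPM (76.1 to 97.1) and 19.4 CPM (10.9 to 32.0). Leading genes beyond the lists were Zic1, C1ql3 and Chodl on the Six6 side, at 398, 319 and 354 against 1.29, 0 and 2.59 CPM, and Fign and Angpt1 on the Otp side, at 344 and 176 against 3.25 and 0.650 CPM.

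Channels, receptors and imprinted genes moved in both directions between the sides. Over all genes 7.23% were called higher on the Six6 side and 5.97% lower. The calls are few, and whether any list below departs from these shares was not tested. Of 25 ion channel genes tested at P7, 4 were higher on the Six6 side, among them Kcnc1, and 4 lower (Kcnmb4, Kcnd2, Kcnd3 and Slc12a5). Kcnc1, a potassium channel of fast-spiking neurons, measured 137 CPM (124 to 151) in the Six6-side cells and 22.0 CPM (12.8 to 35.2) in the Otp-side cells. Kcnd2, a channel of the transient A-type potassium current, measured 46.5 CPM (39.2 to 54.7) in the Six6-side cells and 120.4 CPM (97.2 to 148) in the Otp-side cells. Of 23 imprinted genes, 5 were higher on the Six6 side (Peg10, Dlk1, Cdkn1c, Impact and Asb4) and 3 lower (Grb10, Mest and Zdbf2). Of 9 receptors tested, Avpr1a and Calcr were higher on that side and Ghr, Galr1 and Adcyap1r1 lower. Galr1, a galanin receptor, measured 0.325 CPM (0.00823 to 1.81) in the Six6-side cells and 28.5 CPM (17.8 to 43.1) in the Otp-side cells, so the galanin-rich side also held more of its receptor transcript. In P0 run 2 Avpr1a and Calcr were again called higher, and Kcnmb4 and Kcnd2 lower.

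At P7 the whole Avp class was 85.4% Six6-side cells, and its comparison with the Oxt class sets mostly those cells against oxytocin cells. Of 9249 genes, 497 were called higher in the 233 Avp cells (5.37%) and 524 in the 11 Oxt cells (5.67%), with 1326 (14.3%) at least 2-fold apart. The 12 leading genes on the Avp side were Zic1, Chodl, C1ql3, Rorb, Dbp, Scg2, Gad2, Six6, Cda, Rgs16, Hlf and Rora. On the suprachiasmatic nucleus list 14 of 15 tested genes were higher in the Avp class. Otp and Sim1 measured 89.9 and 22.0 CPM in the Avp class and 406 and 76.0 CPM in the Oxt class.

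Against Otp-side Avp cells alone, Oxt cells carried Otp, Sim1 and Pou3f2 at levels under 2-fold apart. Otp measured 406 CPM (341 to 479.6) in the P7 Oxt class and 444 CPM (398 to 494) on the Otp side, where the split used it. Pou3f2, which the split did not use, measured 292 CPM (238 to 355) and 445 CPM (399.5 to 495). Of 9022 genes, 300 were called higher in Oxt cells (3.33%) and 216 lower (2.39%), with 1112 (12.3%) at least 2-fold apart. At P0, 149 of 8900 were higher (1.67%) and 143 lower (1.61%) between 16 Oxt and 48 Otp-side cells, with 980 (11%) at least 2-fold apart. The Oxt sums rest on 11 and 16 cells, so fewer differences could pass the rule on intervals.

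Oxytocin cells were richer in calretinin, nitric oxide genes and 2 receptors at both ages. Calb2, calretinin, measured 1397 CPM (1274 to 1528) in Oxt against 10.4 CPM (4.47 to 20.4) in Otp-side Avp cells at P7, and 142 CPM (102 to 191) against 8.49 CPM (3.12 to 18.5) at P0. Nos1, the neuronal nitric oxide synthase, measured 87.7 CPM (59.1 to 125) in Oxt against 2.59 CPM (0.314 to 9.35) in Otp-side Avp cells at P7, and 62.5 CPM (37.6 to 97.7) against 5.66 CPM (1.54 to 14.49) at P0. Ass1, which feeds the arginine used by that enzyme, measured 169 CPM (129 to 219) in Oxt against 5.18 CPM (1.41 to 13.3) in Otp-side Avp cells at P7, and 39.5 CPM (20.4 to 69.0) against 4.25 CPM (0.875 to 12.4) at P0. The intervals of all 3 were apart at both ages. Oprk1, the kappa opioid receptor, measured 158 CPM (119 to 206) in Oxt against 14.24 CPM (7.11 to 25.5) in Otp-side Avp cells at P7, and 92.2 CPM (61.2 to 133) against 18.4 CPM (9.80 to 31.5) at P0. Avpr1a measured 58.4 CPM (35.7 to 90.3) in Oxt against 1.29 CPM (0.0328 to 7.21) in Otp-side Avp cells at P7, and 39.5 CPM (20.4 to 69.0) against 5.66 CPM (1.54 to 14.49) at P0. Its P7 level in oxytocin cells was close to the 55.2 CPM of the Six6-side Avp cells. Foxp1, a forkhead factor, measured 263 CPM (211 to 323) in Oxt against 84.2 CPM (64.9 to 107) in Otp-side Avp cells at P7, and 336 CPM (274 to 408) against 92.0 CPM (71.0 to 117) at P0. Pcp4, a calmodulin regulator, measured 1279.8 CPM (1163 to 1405) in Oxt against 142 CPM (117 to 172) in Otp-side Avp cells at P7, and 1274 CPM (1149.9 to 1407) against 276 CPM (239 to 318) at P0. These 7 genes were called at both ages.

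Otp-side Avp cells were richer in the peptides galanin and Crh and in Ebf3, Bcl11a, Angpt1 and Dlk1. Gal measured 32.1 CPM (16.0 to 57.5) in Oxt against 553 CPM (502 to 608) in Otp-side Avp cells at P7, and 42.8 CPM (22.8 to 73.2) against 631 CPM (574 to 693) at P0. Crh had 0 UMIs in the Oxt class at either age (0 to 10.8 CPM at P7), against 126 CPM at P7 and 303 CPM at P0 in Otp-side cells, with most of the P7 Otp-side counts in 1 cell. Ebf3 measured 16.5 CPM (5.34 to 38.4) in Oxt cells at P0, all 5 UMIs in 1 cell, and had 0 UMIs at P7, against 136 and 104 CPM on the Otp side. Bcl11a, a zinc finger factor, measured 6.58 CPM (0.797 to 23.8) and 0 UMIs, against 188 and 98.4 CPM on the Otp side. Angpt1, angiopoietin, measured 2.92 CPM (0.0740 to 16.3) in Oxt against 176 CPM (148 to 208) in Otp-side Avp cells at P7, and 3.29 CPM (0.0833 to 18.3) against 72.2 CPM (53.7 to 94.9) at P0. Dlk1, an imprinted Notch-pathway ligand, measured 58.4 CPM (35.7 to 90.3) in Oxt against 478 CPM (430.2 to 529) in Otp-side Avp cells at P7, and 55.9 CPM (32.6 to 89.6) against 964 CPM (893 to 1039) at P0, with 52.9% and 85% of the Oxt class counts at P0 and P7 in 1 cell each. Pdyn, at 119.8 CPM (86.0 to 163) in Oxt and 172 CPM (144 to 204) in Otp-side cells at P7, was not called, nor were Kcnmb4 or Calb1.

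**Figure D5:**
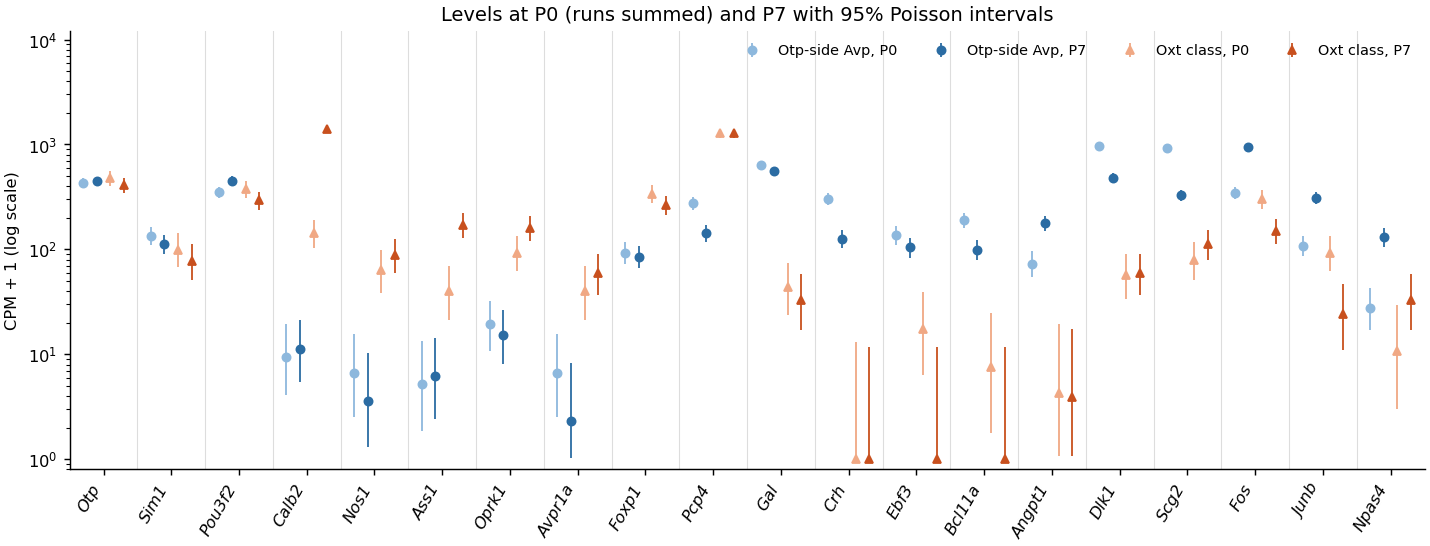
Levels in CPM plus 1, on a logarithmic axis, of 20 genes in Otp-side Avp cells (circles, 48 at P0 and 29 at P7) and Oxt class cells (triangles, 16 and 11), with 95% Poisson intervals. Triangles lie above circles at both ages for Calb2, Nos1, Ass1, Oprk1, Avpr1a, Foxp1 and Pcp4 and below them for Gal, Crh, Ebf3, Bcl11a, Angpt1, Dlk1 and Scg2, while Otp, Sim1 and Pou3f2 are under 2-fold apart.

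More secretory genes were called between oxytocin and Otp-side Avp cells at birth than at P7. Of 20 peptide processing genes tested, 6 were lower in Oxt cells at P0 (Pcsk2, Scg2, Vgf, Cadps2, Rab3b and Ptprn) and 1, Pam, higher, against 1 lower, Scg2, and 0 higher at P7. Over all genes 1.61% were called lower and 1.67% higher at P0, and 2.39% lower and 3.33% higher at P7. Scg2 measured 111 CPM (78.6 to 152) in Oxt against 326 CPM (287 to 369) in Otp-side Avp cells at P7, and 79.0 CPM (50.6 to 118) against 919.8 CPM (850.4 to 993) at P0, with 65.8% of the P7 Oxt counts in 1 cell. Vgf measured 283 CPM (229.8 to 346) in Oxt against 169.6 CPM (142 to 201) in Otp-side Avp cells at P7, and 88.9 CPM (58.6 to 129) against 211 CPM (178 to 248) at P0. Whether the ages differ was not tested. Imprinted genes were called lower in Oxt cells for 5 of 23 at P7 (Magel2, Dlk1, Mest, Begain and Zdbf2) and 5 of 23 at P0 (Peg10, Dlk1, Plagl1, Begain and Zdbf2), and for 0 higher at either age. Magel2, one of the genes of the Prader-Willi region, measured 38.0 CPM (20.2 to 65.0) in Oxt against 120.4 CPM (97.2 to 148) in Otp-side Avp cells at P7, and 79.0 CPM (50.6 to 118) against 116 CPM (92.3 to 144) at P0. Prlr, the prolactin receptor, was called at P7, at 32.1 CPM (16.0 to 57.5) against 0 CPM (0 to 4.78).

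Immediate early genes, which answer to neuronal activity and to dissociation of tissue, were lower in P7 oxytocin cells. Of 12 tested, 7 were called lower than in Otp-side Avp cells and 0 higher at P7, where 2.39% and 3.33% of all genes were, and 0 either way at P0, where 1.61% of all genes were lower and 1.67% higher. Fos measured 149 CPM (111 to 196) in Oxt cells, with 0 to 14 UMIs per cell and a median of 2, and 944 CPM (877 to 1015) on the Otp side, with 0 to 122 and a median of 9. Most of the Otp-side cells thus overlapped with the range of the oxytocin cells. Junb measured 23.4 CPM (10.1 to 46.1) and 309 CPM (271 to 351), and Npas4, a factor induced by neuronal activity, 32.1 CPM (16.0 to 57.5) and 129 CPM (105 to 157). Six6-side cells had 1184 CPM (1145 to 1223) of Fos.

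A few oxytocin cells also held many UMIs of markers of other cell types, and whether these are doublets was tested only by the caller. In P0 run 2, 2 of the 9 were called doublets, and they held 80 and 9 UMIs of astrocyte markers and 208 and 40 of radial glia markers, against at most 1 and 8 in the other 7. Another cell of that run, not called, held 1050 UMIs of Pmch, the melanin-concentrating hormone of the lateral hypothalamus, beside 176 of Oxt. At P7 the cell with the least Oxt, 46 UMIs, held 83 UMIs of oligodendrocyte precursor markers, and the other 10 at most 4. No P7 Oxt cell was called. Among Avp cells 1 of 29 Otp-side and 10 of 199 Six6-side cells at P7 were called, and 0 at P0.

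Most Oxt class cells also held UMIs of the glutamate transporter gene Slc17a6. In the Oxt class Slc17a6 was found in 12 of 16 (75%, 47.6 to 92.7%) cells at P0 and 10 of 11 (90.9%, 58.7 to 99.8%) at P7, at 65.8 CPM (40.2 to 102) and 187 CPM (144 to 239). GABA genes were found in 2 of 16 (12.5%, 1.55 to 38.3%) and 4 of 11 (36.4%, 10.9 to 69.2%), and in 0 of 16 and 0 of 11 after thinning, when Slc17a6 was in 0 of 16 and 3 of 11. Glia of P0 and P7 had GABA genes in 13.6% and 21.9% of cells and Slc17a6 in 3.57% and 4.77%. In the other Stmn2-positive cells Slc17a6 was found in 29.1% at P0 and 32.3% at P7, and after thinning in 10.2% and 14.7%. The higher share in the P0 Oxt class was thus not seen at equal depth. The 0 after thinning sets no limit on the cells that express these genes, since Slc17a6 also fell to 0 of 16.

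The make-up of the Avp class differed between the samples of birth and P7, so ages are compared within sides as well. In the whole class 472 of 9243 genes were called higher at P7 (5.11%) and 251 lower (2.72%), 723 (7.82%) in all. Against P0 run 1 alone 2375 (26.3%) were at least 2-fold apart and against P0 run 2 alone 787 (8.51%), and the Otp side held 78.3% and 53.6% of Avp cells in those runs. Within the Otp side 275 of 8933 were higher (3.08%) and 178 lower (1.99%), with 738 (8.26%) at least 2-fold apart. Blood RNA moved with this: the 4 erythroid markers summed to 334 and 9.43 CPM in the Otp-side cells of P0 run 1 and run 2 and to 9.06 at P7. In the other cells they summed to 2596, 68.9 and 10.9 CPM, and 1 cell gave 5327 of the 6237 UMIs behind the value of P0 run 2. The part of blood RNA in the differences was not tested. Within the Six6 side 327 of 9120 were higher (3.59%) and 206 lower (2.26%), with 895 (9.81%) at least 2-fold apart. The Oxt class had 261 of 8962 higher (2.91%) and 135 lower (1.51%), with 1522 (17%) at least 2-fold apart, 3122 against the 7 cells of P0 run 1 alone and 1987 against the 9 of P0 run 2 alone. For the other cells these numbers were 464 of 10014 (4.63%) and 119 (1.19%). With Avp and Oxt kept in the totals 50.2% of the Oxt class genes at least 2-fold apart were higher at P7 in place of 60.2%. Otp-side cells could also be followed from E14, where 22 cells of run 2 met the same minimum. Between those and the 48 of P0, 335 of 8620 genes were called higher at P0 (3.89%) and 208 lower (2.41%), with 1308 (15.2%) at least 2-fold apart. Age and sample cannot be told apart in any of these comparisons, and the part of sex was not tested where P0 run 2 enters.

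Sox11, Dcx and Igfbpl1, genes of young neurons, were lower at P7 in both sides, the Oxt class and the other cells. Sox11, a factor of newborn neurons, measured, at P0 and P7 in that order, 473 and 113 CPM on the Otp side, 442 and 63.0 on the Six6 side, 533 and 99.3 in the Oxt class and 1481 and 293 in the other cells. Dcx, doublecortin, measured 304 and 114 CPM on the Otp side, 217 and 71.5 on the Six6 side, 309 and 143 in the Oxt class and 415 and 155 in the other cells. Igfbpl1 measured 109 and 41.4 CPM on the Otp side, 97.6 and 8.77 on the Six6 side, 36.2 and 0 in the Oxt class and 171 and 17.4 in the other cells, with 56.2% and 72.7% of the P0 counts of the Six6 side and the Oxt class in 1 cell each. These 3 and the next 2 were called in all 4 groups. The synaptic genes Syp and Syn2 were higher. Syp, synaptophysin, measured 248 and 698 CPM on the Otp side, 238 and 664 on the Six6 side, 161 and 1026 in the Oxt class and 101 and 509 in the other cells. Syn2, synapsin II, measured 139 and 409 CPM on the Otp side, 241 and 684 on the Six6 side, 95.4 and 272 in the Oxt class and 74.8 and 224 in the other cells. Of the maturation list, 2 of 30 were called higher and 4 lower on the Otp side, 4 and 4 of 30 on the Six6 side and 3 and 4 of 30 in the Oxt class. Over all genes the shares called were 3.08% and 1.99%, 3.59% and 2.26%, and 2.91% and 1.51%. The list's median log2 difference was -0.03, 0.11 and 0.27, against 0.04, 0.02 and 0.09 over all genes.

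Some genes of the peptide, processing and marker lists were called between the ages within each group. Other neuropeptides were 4 higher and 3 lower of 15 tested on the Otp side, 4 and 1 of 10 on the Six6 side and 2 and 3 of 14 in the Oxt class. Peptide processing genes were 1 and 1 of 20, 1 and 0 of 21 and 4 and 0 of 20 in the same order. Over all genes the shares were 3.08% and 1.99%, 3.59% and 2.26%, and 2.91% and 1.51%. On the Otp side Crh was 303 CPM (264 to 346) at P0 and 126 CPM (102 to 153) at P7, Pcsk1 59.4 CPM (42.8 to 80.3) and 137 CPM (112 to 166), and Scg2 919.8 CPM (850.4 to 993) and 326 CPM (287 to 369), all called. Most of the P7 Otp-side counts of Crh were in 1 cell. On the Six6 side Nms was 12.2 CPM (3.32 to 31.2) and 74.7 CPM (65.4 to 85.1), Vgf 403 CPM (337 to 477) and 851 CPM (819 to 885), and Rasd1 82.4 CPM (54.3 to 119.8) and 179 CPM (164 to 194), all called higher at P7. In the Oxt class Calb2 was 142 CPM (102 to 191) and 1397 CPM (1274 to 1528), the largest rise among its ranked genes, Caprin2 9.87 CPM (2.04 to 28.9) and 76.0 CPM (49.6 to 111), and Pcsk1 36.2 CPM (18.1 to 64.8) and 155 CPM (116 to 203). Whether these changes differ between the groups was not tested.

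Glial transcripts were higher at P7 in the Avp class, and of its 12 ranked genes Olig1, Olig2, Pdgfra, Gpr37l1, Cd9, Apoe, Agt, Bcan and Plpp3 are known from glia. Olig1, a factor of oligodendrocyte precursors, measured 4.25 and 75.1 CPM on the Otp side, 3.05 and 90.3 on the Six6 side, 3.29 and 181 in the Oxt class and 104 and 301 in the other cells, with 87.1% of the P7 counts of the Oxt class in 1 cell. The 6 precursor markers summed to 14.15 and 8.94 CPM in the qualifying cells of the P0 runs and 230.0 at P7, with medians of 0, 0 and 1 UMIs per cell. A single P7 cell held up to 84 of these UMIs. Without called doublets, 0, 2 and 11 of the 30, 67 and 247 cells, the log2 difference between P7 and P0 in the Avp class was 2.84 in place of 3.52 for Olig1, 2.17 in place of 3.05 for Pdgfra and 2.42 in place of 2.71 for Apoe. The part of glial RNA in the other differences was not tested.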

How the data were processed

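Single-cell RNA-seq (10x Genomics, version 3 chemistry per the labels' protocols) of sorted cells was deposited as 1 table of 28879 genes by 43261 cells. The authors deposited unscaled UMI counts, all of them whole numbers, for every gene in every cell. The submitters' processing notes name Cell Ranger 3.0.2, Seurat and the build mm10 without their roles. The filters applied before deposit are not given in the sources used here; the table holds cells of 2001 to 7998 genes. Runs were taken from the start of each cell's name. Cells, rule, members and gene lists were chosen with earlier results of these data known.

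From the counts, groups of cells were summed and scaled to counts per 1000000 UMIs (CPM) with Avp and Oxt left out of the totals. Folds were taken with 5 CPM added, over genes with a mean of at least 10 CPM. Genes outside the lists were named by 1 rule: at least 2-fold apart, intervals apart, UMIs in no fewer than 20% of the higher group's cells and at most 25% of its counts from 1 cell (not asked where 3 runs had to agree), the 12 highest and 12 lowest by fold, without Avp, Oxt, Stmn2, tdTomato, Xist, Tsix and mitochondrial, ribosomal, Y-linked, Gm and Rik genes. It was extended to the split of the Avp class, which was added after seeing the data. The 4 ages have 1 sample each, so intervals measure only counting error, and UMIs and cells are not replicates of animals. Thinning drew 2000 UMIs per cell and left out 0 qualifying cells. Doublets were called per run with Scrublet in scanpy 1.11.5 and kept in the main values. Steps used Python 3.11.15, numpy 2.4.6, scipy 1.17.1 and pandas 2.3.3, and the fold step was tested on simulated data. In the alternatives, cells, minimums, scaling and added CPM were changed singly. Promoters and gene positions come from RefSeq for GRCm38.p6 (mm10) and transcripts from GENCODE vM21; both genes matched by symbol. Some items are not reported here.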

Additional observations from a re-analysis of the deposited data

Results flagged for a closer look

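Cells past the same minimum were also found before birth. In E14 run 2, outside the postnatal comparisons, 22 of 14671 Stmn2-positive cells (0.150%, 0.0940 to 0.227%) qualified, against 0 of 301 in E14 run 1 and 0 of 191 in E11 run 1, which allow shares of up to 0.997% and 1.57% (3 counts of the total). They held from 43 to 594 Avp UMIs with a median of 224.5, and at most 2 of Oxt. All 22 were on the Otp side. In E11 run 2, 1 of 2738 cells qualified, with 39 Oxt and 0 Avp UMIs.

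Signs opposite between runs or classes flagged 4 genes, and none of these differences was tested. Adra1b, an adrenergic receptor, had a log2 fold of qualifying over other cells of 1.01 in P0 run 2 and -1.09 at P7. The values of Grp, gastrin-releasing peptide, were 1.66 in P0 run 2 and -1.38 at P7. Th, tyrosine hydroxylase, had 1.11 in P0 run 1 and -1.56 at P7. Slc17a6, between P7 and P0, had -1.01 in the Avp class and 1.44 in the Oxt class, beside an Otp-side share of the Avp class of 60.8% at P0 and 12.4% at P7. Within the Otp side Slc17a6 measured 119 CPM (94.8 to 147) at P0 and 179 CPM (150.1 to 211) at P7.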

How the results depend on the processing

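Of 149 recomputed counts and shares 110 stayed within 1.5 times or within their interval. Of 1632 recomputed gene folds 1626 kept their direction and 272 left the counting interval. The 6 that turned were, with other cells of at least 10 Stmn2 UMIs, Id3 (0.40) and Sparc (0.087) in P0 run 2 and Cd9 (0.042), Slc1a3 (0.21) and Sparc (0.0033) at P7, and CT010467.1 between P7 and P0 in the Avp class (0.94) without P0 run 2. The cause was not tested.

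The counts of genes at least 2-fold apart moved with the amount added and with the minimum level, which sets how many low genes enter. For qualifying over other cells in P0 run 1, P0 run 2 and P7 (1231, 689 and 953) they were 513, 304 and 406 with 20 CPM added and 284, 208 and 264 from 50 CPM, and 2276 and 1055 in the P0 runs with no minimum. With other cells of at least 10 Stmn2 UMIs they were 422 in P0 run 2 and 614 at P7. For Avp over Oxt class (1326) they were 592, 382 and 2150 in the same order of 20 CPM, 50 CPM and no minimum, for P7 over P0 in the Oxt class (1522) 544, 369 and 2936, and for Oxt class over Otp side (1112) 415, 271 and 2132. For P7 over P0 in the Avp class (723) 20 and 50 CPM gave 293 and 267, and for Six6 side over Otp side (1257) 694 and 443. Without P0 run 2 the age counts were 2375 and 3122. The minimum of 50 CPM raised the higher share of such genes in qualifying cells to 41.2%, 46.6% and 36.7%, and in the Oxt class at P7 to 70.5%, and lowered that of Avp over Oxt class to 43.5%.

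Shares with a UMI fell under thinning to 2000 UMIs: Slc17a6 to 13.9% and 4.72% in the Avp class at P0 and P7 and 0% and 27.3% in the Oxt class, GABA genes to 21.5%, 65.7%, 0% and 0%. With 2 UMIs asked for, Slc17a6 stood at 25.3%, 10.3% and 37.5% in the Avp class at P0 and P7 and the Oxt class at P0, GABA genes at 32.9% in the Avp class at P0 and 9.09% in the Oxt class at P7. With a peptide minimum of 60 UMIs the Otp side was 100% of Avp cells in P0 run 1. The split, its settings, the minimum of 10 Stmn2 UMIs and the omission of P0 run 2 were chosen after seeing the data. No paired analysis was possible because each age has 1 sample, and for the same reason no replicate could be left out. The number of cells, 7 to 11 per run, limits the precision of the Oxt class.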

Other observations

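Vasopressin cells of the Otp side could be compared over a longer span than the others, between 22 cells of E14 run 2 and 48 of P0. Secretory genes were among those higher at P0. Of 20 peptide processing genes tested 9 were called higher and 0 lower, where 3.89% of all genes tested were called higher and 2.41% lower. Scg2 measured 136 CPM (98.8 to 183) at E14 and 919.8 CPM (850.4 to 993) at P0. Pcsk1 measured 6.18 CPM (0.749 to 22.3) and 59.4 CPM (42.8 to 80.3). Pam measured 27.8 CPM (12.7 to 52.8) and 103 CPM (81.0 to 129.9). Of the hormone synthesis list 4 of 10 were higher, Rasd1, Caprin2, Nr3c1 and Fosl2, and 0 lower. Caprin2 measured 15.5 CPM (5.02 to 36.1) and 77.8 CPM (58.6 to 101).

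Genes of other hypothalamic regions were lower at P0 for 7 of 10 tested, among them Nkx2-1, Fezf1, Lhx8 and Dlx2, and higher for 0. Over all genes 2.41% were called lower and 3.89% higher. Nkx2-1 measured 58.7 CPM (35.4 to 91.7) at E14 and 7.08 CPM (2.30 to 16.5) at P0. Of the ion channel list 7 of 23 were higher, among them Kcnma1, Kcnd2 and Kcnd3, and 0 lower. Kcnma1, the calcium-gated channel that Kcnmb4 accompanies, measured 24.7 CPM (10.7 to 48.7) and 80.7 CPM (61.1 to 105). Slc17a6 measured 40.2 CPM (21.4 to 68.7) and 119 CPM (94.8 to 147). Hbb-bs, a haemoglobin gene of red cells, was also called higher, with 0 CPM (0 to 11.4) at E14 and 48.1 CPM (33.3 to 67.2) at P0. Apoe and Fabp7, known from glia, were among the 12 leading genes as well. Astrocyte markers summed to 0 CPM at E14, with all 7 at 0, and to 215 and 26.4 CPM in the Otp-side cells of P0 run 1 and run 2, and radial glia markers to 142 CPM against 1150.0 and 294 CPM. The 4 erythroid markers were all at 0 at E14 and summed to 334 and 9.43 CPM in the P0 runs. The part of this RNA in the other differences was not tested, and age and sample cannot be told apart.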
